A study of Monodelphis domestica with 2 samples.

Results

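AQP4, ALDH1L1, GFAP, SLC1A3 and GJA1 are 5 genes of astrocyte upkeep, taken here by their symbols from the 30800 genes of the count matrices, of which 11590 had a symbol. All 5 were found, as ENSMODG00000021514, ENSMODG00000007603, ENSMODG00000011301, ENSMODG00000020352 and ENSMODG00000017758 in that order. They were measured by single-nucleus RNA sequencing of V1, the primary visual area of the cortex, in the short-tailed gray opossum Monodelphis domestica, which is a marsupial. The samples were 2 adult males from a colony, animal 1 aged 1.5 years and animal 2 aged 2 years, with no treatment or genetic change named. V1 of both hemispheres was pooled per animal and stored frozen, nuclei stained with Draq5 were sorted, and each suspension was split into 2 droplet libraries. Age and animal cannot be told apart, so the animals served as replicates of 1 group and were not compared with each other. The annotation placed 32764 nuclei in 18 subclasses: 8 glutamatergic, 5 GABAergic and 5 non-neuronal.

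Astrocytes keep the space around neurons in working order. They take up the glutamate that neurons release, carry water and potassium towards blood vessels, share ions and small molecules through gap junctions, and run part of the folate cycle. SLC1A3 encodes the glutamate transporter GLAST. AQP4 encodes aquaporin-4, the water channel of the astrocyte endfoot. GJA1 encodes connexin 43, a gap junction protein. ALDH1L1 encodes a folate enzyme, and GFAP encodes an intermediate filament protein that rises in reactive astrocytes. Astrocytes are widely recognised by these genes, which is why they were grouped, so their height in astrocytes is given below as a description without a test.

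The 4 libraries held 55625042 to 69706055 UMIs (unique molecular identifiers, each standing for 1 RNA molecule), with a median of 5834 to 7040 per labelled nucleus. Pairs of libraries shared 16 to 30 barcodes, 0.206% to 0.348% of the smaller library. Astrocytes made up 1273 nuclei of animal 1 and 816 of animal 2, with a median of 2522 and 2781 UMIs. The label was checked against a list of 12 astrocyte markers that includes the 5 genes. Of the 11 with a symbol, all 11 were highest in astrocytes in both animals. Their summed level in astrocyte nuclei was 22998 and 21958 CPM (UMIs per 1000000 UMIs of all genes), beside 9.41 and 6.88 for a list of microglial markers, 53.6 and 67.6 for endothelial markers and 4.56 and 0.810 for markers of oligodendrocyte precursors (OPCs). SLC1A2 alone gave 15454 and 14791 CPM of the astrocyte sum. The lists hold different genes, so the distance between their sums does not measure purity. CDH5, which defines endothelium, was at 0 in astrocytes and at 82.5 and 104 CPM in endothelial nuclei. OLIG2, which defines the oligodendrocyte lineage, was at 0 in astrocytes too, but at no more than 2.05 and 1.57 CPM in ODs. Mural and fibroblast markers summed to 116 and 106 CPM in astrocytes, nearly all of it PDGFRB (112 and 102 CPM), which was highest in astrocytes, and ependymal markers to 57.3 and 49.8 CPM. Markers of oligodendrocytes (ODs) reached 409 and 234 CPM there, and those of neurons 313 and 389 CPM, and the part these have in the levels of the 5 genes was not tested. CPM below are UMIs of a gene summed over the nuclei of an animal and subclass and scaled to the UMIs of all genes there. They were not divided by gene length, so levels are compared between cell types and not between genes.

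SLC1A3 was detected in nearly every astrocyte nucleus. Its level there was 3374 CPM in animal 1 and 3076 CPM in animal 2, a mean of 3225 ± 211 (SD, n = 2). At least 1 UMI was found in 98.4% of nuclei (exact 95% interval 97.5% to 99.0%) and 98.0% (96.8% to 98.9%). The libraries of animal 1 gave 3318 and 3426 CPM and those of animal 2 gave 3039 and 3109 CPM, so the animals' libraries did not overlap.

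ALDH1L1 stood at 411 and 378 CPM in astrocytes (395 ± 23.2, SD, n = 2) and was seen in 60.3% and 61.9% of their nuclei. Its libraries gave 400 and 422 CPM in animal 1 and 377 and 380 CPM in animal 2, again without overlap. GJA1 stood at 375 and 488 CPM (431 ± 80.1, SD, n = 2), with 56.1% and 63.2% of nuclei positive. The libraries of animal 1 gave 359 and 390 CPM of GJA1 and those of animal 2 gave 470 and 505 CPM, so the animals' libraries did not overlap. AQP4 differed least between animals in CPM, at 197 and 201 (199 ± 3.08, SD, n = 2), but not per nucleus, at 542 and 609 UMIs per 1000 nuclei, and was found in 38.1% and 44.0% of nuclei. GFAP was at 291 and 191 CPM (241 ± 70.5, SD, n = 2), in 37.3% and 32.8% of nuclei. Within animal 1 its libraries gave 242 and 337 CPM, while both libraries of animal 2 gave 191 or 192 CPM. These intervals and shares cover counting error only, and a share moves with depth: thinned to 1000 UMIs per nucleus, the mean share fell to 17.4% for AQP4 and to 92.3% for SLC1A3.

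**Figure D1:**
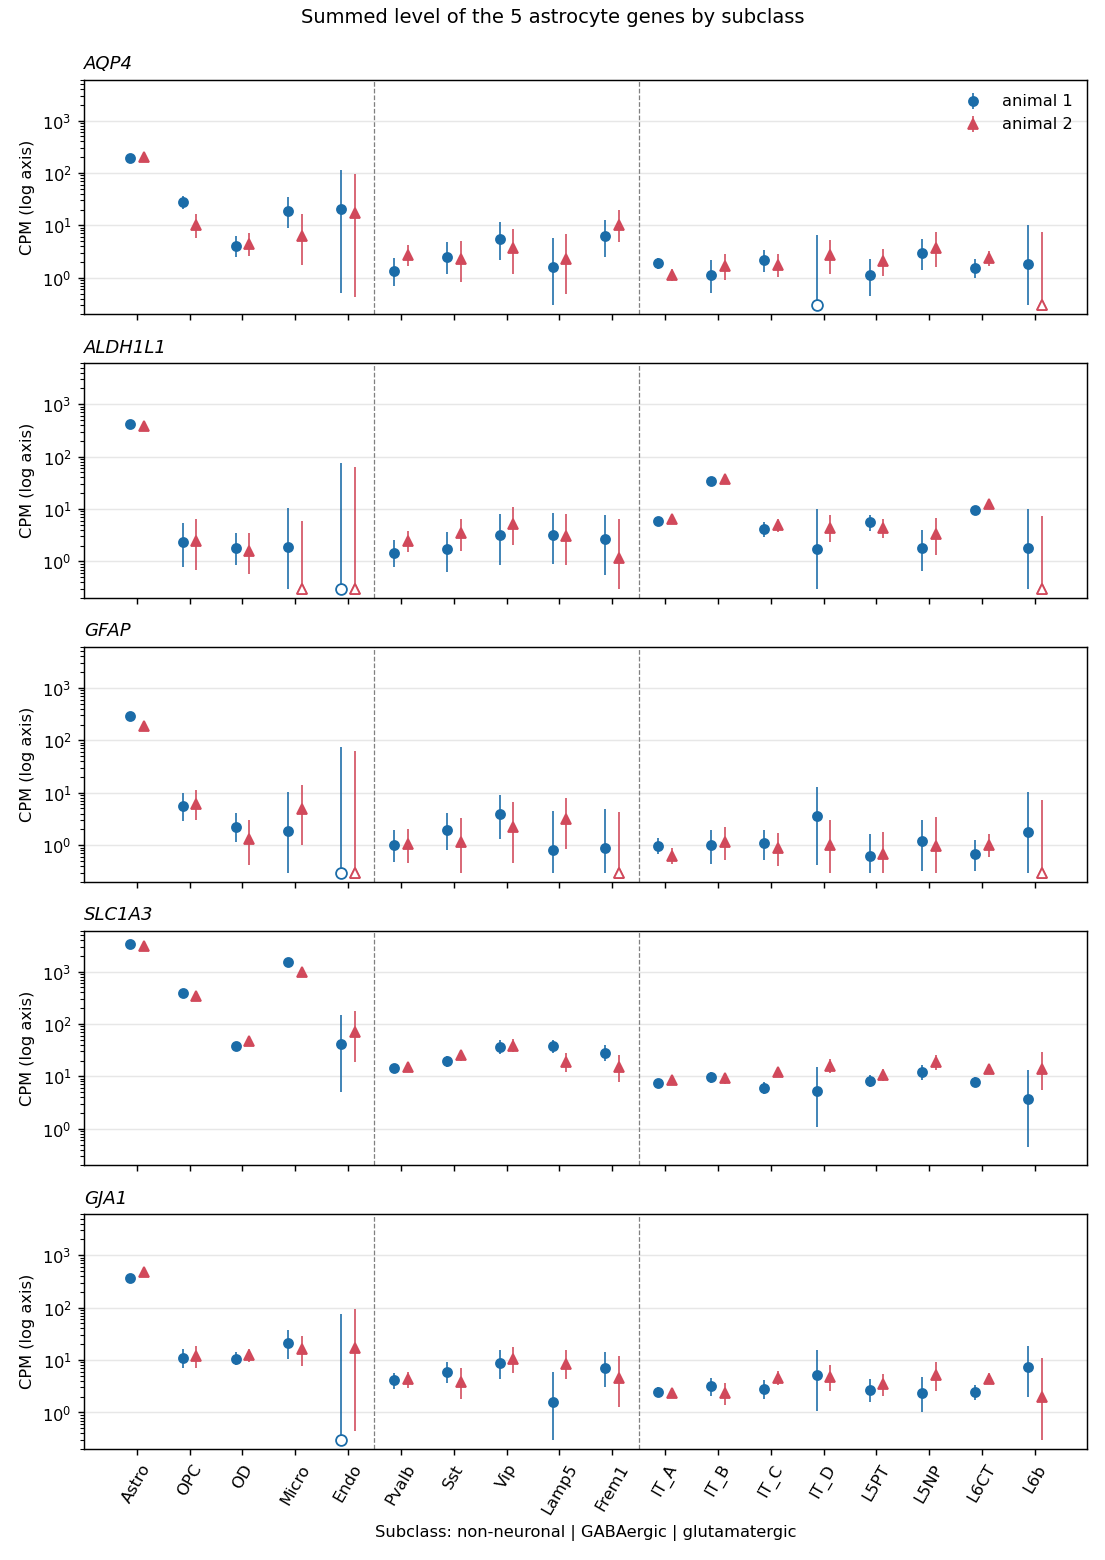
Level of the 5 genes in each of the 18 subclasses, in CPM on a log axis, with 1 point per animal and exact Poisson 95% intervals that cover counting error only. Open symbols at the lower edge had 0 UMIs. Each gene is highest in astrocytes, where SLC1A3 reaches 3374 and 3076 CPM, and SLC1A3 alone stays above 300 CPM in OPCs and microglia.

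Each of the 5 genes was highest in astrocytes in both animals, and the distance to the next subclass differed widely. For GFAP the next subclass was OPCs, with 5.69 and 6.22 CPM, 51.2 and 30.8 times lower than astrocytes. For AQP4 it was OPCs in animal 1 (7.16 times lower) and endothelial nuclei in animal 2 (11.6 times lower), the latter from 1 UMI in 36 nuclei. For GJA1 it was microglia in animal 1 (18.1 times lower) and endothelial nuclei in animal 2 (28.2 times lower, again 1 UMI). ALDH1L1 was next highest not in another glial subclass but in the glutamatergic neurons IT_B, an intratelencephalic subclass, at 34.6 and 38.0 CPM. SLC1A3 had the smallest distance in CPM, with microglia 2.19 and 3.12 times lower than astrocytes. Per nucleus the order turned, since SLC1A3 was 3.77 and 5.88 times lower in microglia and ALDH1L1 3.49 and 3.39 times lower in IT_B.

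Astrocytes are a small part of all nuclei, yet they held most of the UMIs of GFAP (86.5% of the 1728 UMIs in labelled nuclei), AQP4 (70.2% of 1690) and ALDH1L1 (57.6% of 4128). Below the top of the order most subclasses could not be separated. With the subclasses ranked by mean CPM, the animals' values of neighbouring subclasses overlapped in 13 of 17 pairs for AQP4, 13 for ALDH1L1, 15 for GFAP, 13 for SLC1A3 and 14 for GJA1. For SLC1A3 the separate steps were astrocytes, microglia, OPCs and the rest. Among the rest, the GABAergic Pvalb neurons (14.4 to 15.1 CPM) lay apart from L6CT, the next below. IT_D, further down, ran from 5.28 to 15.9 CPM and overlapped Pvalb. For ALDH1L1 the separate steps were astrocytes, IT_B, the L6CT neurons, the IT_A neurons and the rest.

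ALDH1L1 in IT_B stood at 9.19% of the astrocyte level in CPM, and the other 4 genes were lower still against astrocytes in each neuronal subclass. Neurons are most of the nuclei, and together they held 41.8% of all ALDH1L1 UMIs, 22.2% of AQP4, 19.9% of GJA1, 11.1% of GFAP and 9.0% of SLC1A3. Over the 13 neuronal subclasses, GFAP ran from 0.633 to 3.95 CPM in animal 1 and from 0 to 3.10 CPM in animal 2. GJA1 ran from 1.62 to 8.69 and from 1.98 to 10.4 CPM, and SLC1A3 from 3.63 to 38.0 and from 8.66 to 38.6 CPM. AQP4 was highest among neurons in the GABAergic subclass Frem1, with 6.24 and 10.4 CPM.

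A second question is whether the other glia carry these genes above the level of neurons. Counts summed per animal and subclass were compared by edgeR's quasi-likelihood test over 17227 genes, each glial subclass against the mean of the 13 neuronal subclasses, with p-values adjusted by the method of Benjamini and Hochberg. The comparisons share the same neurons. The spread between animals was pooled over all 18 subclasses, so an SE does not measure how far a single difference varied between the animals. Glial nuclei hold fewer UMIs than neurons, so a gene can be higher in CPM and lower per nucleus. A fit scaled to the number of nuclei in place of UMIs moved the median log2 fold change of all genes to -1.41 in OPCs, -1.94 in ODs, -2.18 in microglia and -2.72 in endothelial nuclei, and its values stand beside the main ones where the direction or the call changed. Under that scaling 7.59% of all genes were called higher and 65.2% lower in OPCs, 5.98% and 73.3% in ODs, and 6.99% and 70.8% in microglia. RNA free in the droplets can give UMIs in nuclei that do not express a gene, and its part in the low counts of neurons, OPCs, ODs and microglia was not tested.

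SLC1A3 was high in microglia, the immune cells of the brain. Its level there was 1543 CPM in animal 1 (818 UMIs in 332 nuclei) and 987 CPM in animal 2 (619 UMIs in 391 nuclei), a mean of 1265 ± 393 (SD, n = 2). The libraries gave 1544, 1542, 978 and 995 CPM, so the libraries of an animal lay close together and the animals apart. SLC1A3 was found in 70.2% and 55% of microglia, at a median depth of 1430 and 1483 UMIs, beside 7.15% and 9.22% of ODs at a median depth of 1924 and 1909 UMIs. In 32.5% and 25.6% of microglia at least 3 UMIs were counted, and at most 19 and 14. Thinned to 1000 UMIs per nucleus, 62.4% and 45.6% of microglia and 3.64% and 4.98% of ODs held SLC1A3.

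Against neurons, SLC1A3 in microglia was higher by 6.1 ± 0.15 on the log2 scale (SE, edgeR adjusted p = 6.33e-24). It was called in the same direction when scaled to the number of nuclei (4.19, edgeR adjusted p = 3.51e-20). With animal 1 left out the difference was 5.69 and with animal 2 left out 6.75, without a test.

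The other 4 genes were at low counts in microglia. For each UMI of AQP4, microglia held 81.8 and 155 UMIs of SLC1A3, where astrocytes held 17.1 and 15.3. Microglia held 10 and 4 UMIs of AQP4 in all, 11 and 10 of GJA1 (20.7 and 15.9 CPM), 1 and 3 of GFAP, and 1 and 0 of ALDH1L1. The microglia with SLC1A3 had 5 microglial genes too, at levels above or below those of the other microglia: CSF1R, the receptor that microglia need to survive, stood at 995 CPM in nuclei with and 964 CPM in nuclei without SLC1A3 in animal 1, and at 1051 and 980 CPM in animal 2. CX3CR1, the fractalkine receptor, stood at 352 and 354 CPM in animal 1 and at 318 and 350 CPM in animal 2. C1QA, a complement gene, stood at 31.1 CPM with and 55.5 CPM without SLC1A3 in animal 1, and at 53.4 and 62.6 CPM in animal 2. PTPRC, the leukocyte antigen CD45, stood at 376 and 499 CPM in animal 1 and at 562 and 590 CPM in animal 2. P2RY12, a purine receptor of microglia, turned between the animals, at 179 and 125 CPM and at 98.4 and 118 CPM.

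SLC1A3 was also high in OPCs, the precursors of ODs. They held 391 and 340 CPM (365 ± 36, SD, n = 2), with 57.1% and 52.7% of nuclei positive at a median depth of 2551 and 2619 UMIs. The libraries ran from 302 to 401 CPM. The difference from neurons was 4.61 ± 0.16 on the log2 scale (SE, edgeR adjusted p = 2.19e-20), and 3.20 when scaled to the number of nuclei (edgeR adjusted p = 1.11e-16).

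Other members in OPCs were lower but mostly above neurons. GFAP, at 12 and 10 UMIs, was higher than in neurons by 2.33 ± 0.39 on the log2 scale (SE, edgeR adjusted p = 1.43e-05), with 3.28 when animal 1 was left out and 2.18 when animal 2 was left out. In animal 2, 2 neuronal subclasses had 0 UMIs of GFAP, which enters the 3.28. AQP4 stood at 27.5 CPM in animal 1 and 9.95 CPM in animal 2, and the animals' values did not come close. Its difference was 3.04 ± 0.31 (SE, edgeR adjusted p = 2.42e-09), with 2.41 when animal 1 was left out and 4.21 when animal 2 was left out. For AQP4, 1 neuronal subclass had 0 UMIs in each animal. GFAP and AQP4 were called higher under the scaling to nuclei too, by 0.92 and 1.61, but both calls were lost with 29 nuclei per subclass and animal. GJA1 was higher in CPM, by 1.35 ± 0.32 (SE, edgeR adjusted p = 0.000824), and not per nucleus, where the difference was -0.06 (edgeR adjusted p = 0.941). ALDH1L1, at 5 and 4 UMIs, did not pass the test, with a difference of -0.79 ± 0.44 (SE, edgeR adjusted p = 0.163), yet passed when scaled to the number of nuclei (-2.19, edgeR adjusted p = 1.73e-05) and with nuclei marked as doublets removed (-1.23, edgeR adjusted p = 0.0497). In all, 4 of the 5 genes were called higher and 0 lower in OPCs, where 23.4% of all genes tested were called higher and 21% lower.

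ODs, the myelinating cells, showed how far the answer depends on the scale. SLC1A3 was at 37.2 and 46.9 CPM, above neurons by 1.66 ± 0.21 on the log2 scale (SE, edgeR adjusted p = 6.31e-08). GJA1 was at 10.6 and 12.3 CPM, above neurons by 1.54 ± 0.24 (SE, edgeR adjusted p = 2.26e-06). AQP4 was at 4.09 and 4.45 CPM, above neurons by 1.03 ± 0.37 (SE, edgeR adjusted p = 0.0174). Scaled to the number of nuclei the direction turned for all of these, to -0.29 for SLC1A3 (edgeR adjusted p = 0.230), -0.41 for GJA1 (edgeR adjusted p = 0.129) and -0.90 for AQP4 (edgeR adjusted p = 0.0234). GFAP, at 11 and 5 UMIs, missed the threshold at 0.82 ± 0.41 (SE, edgeR adjusted p = 0.0866), and turned to -1.11 (edgeR adjusted p = 0.0102) per nucleus. ALDH1L1 was lower than in neurons on both scales, by -1.11 ± 0.36 (SE, edgeR adjusted p = 0.00988) in CPM and -3.03 per nucleus. With 1 animal left out the AQP4 difference was 1.42 to 1.60, with 1 neuronal subclass at 0 UMIs in each animal. ODs thus had 3 of the 5 genes called higher and 1 lower, where 30.7% of all genes were called higher and 28.7% lower.

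In microglia, AQP4 and GJA1 were called higher than in neurons in CPM, by 2.08 ± 0.57 (SE, edgeR adjusted p = 0.00336) and 1.74 ± 0.43 (SE, edgeR adjusted p = 0.00132), but per nucleus the differences were 0.18 (edgeR adjusted p = 0.812) and -0.17 (edgeR adjusted p = 0.746). The AQP4 difference was 1.50 with animal 1 left out and 3.36 with animal 2 left out. GFAP did not pass (1.27 ± 0.76, SE, edgeR adjusted p = 0.214). ALDH1L1 was called lower (edgeR adjusted p = 0.0324), and this call rests on very few molecules: its level was 1.89 CPM in animal 1, with an exact Poisson 95% interval of 0.0477 to 10.5, and 0 in animal 2, which allows up to 4.78 CPM at 3 counts. DESeq2 did not make the call (adjusted p = 0.154), and it was also lost without the low-count filter and with labels rebuilt from other genes. Microglia had 3 of the 5 genes called higher, where 20.8% of all genes were, and 1 called lower, where 24.6% were.

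Endothelial nuclei numbered 29 and 36, too few to place these genes. SLC1A3 was counted 2 and 4 times and AQP4 once in each animal, at 20.6 CPM (exact 95% interval 0.522 to 115) and 17.3 CPM (0.438 to 96.3). ALDH1L1 and GFAP had 0 UMIs, which allows up to 61.8 and 51.8 CPM at 3 counts per animal. ALDH1L1 and GFAP thus had no fold that could be estimated. By edgeR's adjusted p, 0 of the other 3 genes were called higher or lower (0 also at an unadjusted p under 0.05, and by DESeq2 0 called with 2, AQP4 and SLC1A3, at an unadjusted p under 0.05), where 6.25% of all genes were called higher and 10.6% lower. With 29 nuclei per subclass and animal SLC1A3 was called higher in endothelial nuclei, in that setting alone.

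**Figure D2:**
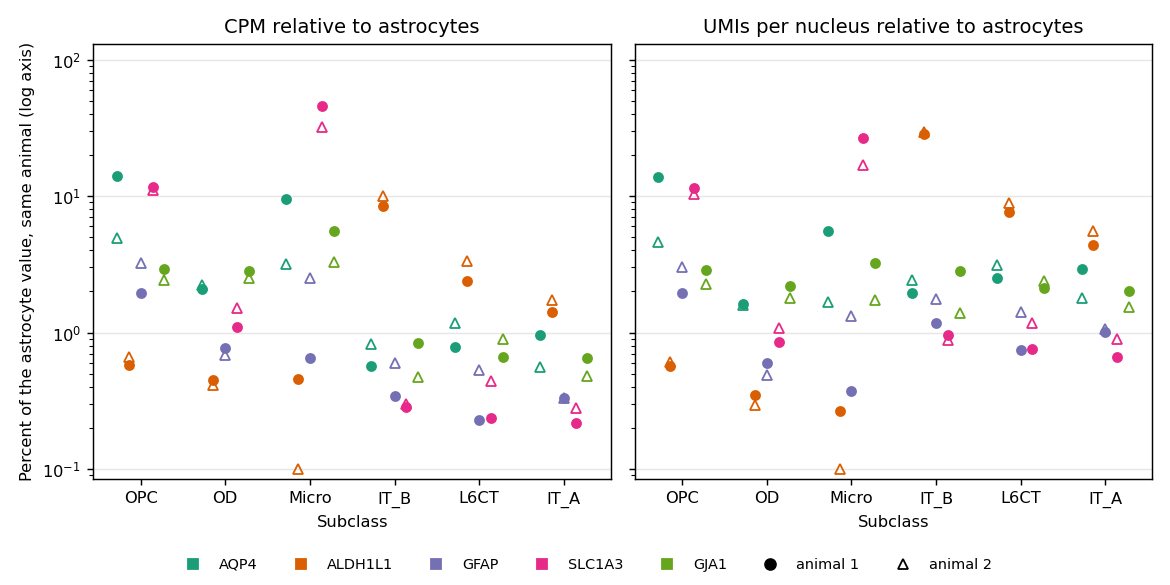
Level of each gene in OPCs, ODs, microglia and the IT_B, L6CT and IT_A neurons as a percent of the astrocyte level of the same animal, in CPM (left) and in UMIs per nucleus (right), on log axes with 1 point per animal; the open triangle of ALDH1L1 in microglia at 0.1 stands for 0 UMIs. On average SLC1A3 in microglia is at 39.2% of astrocytes in CPM and 21.8% per nucleus, and ALDH1L1 in IT_B at 9.19% and 29.1%.

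**Figure D3:**
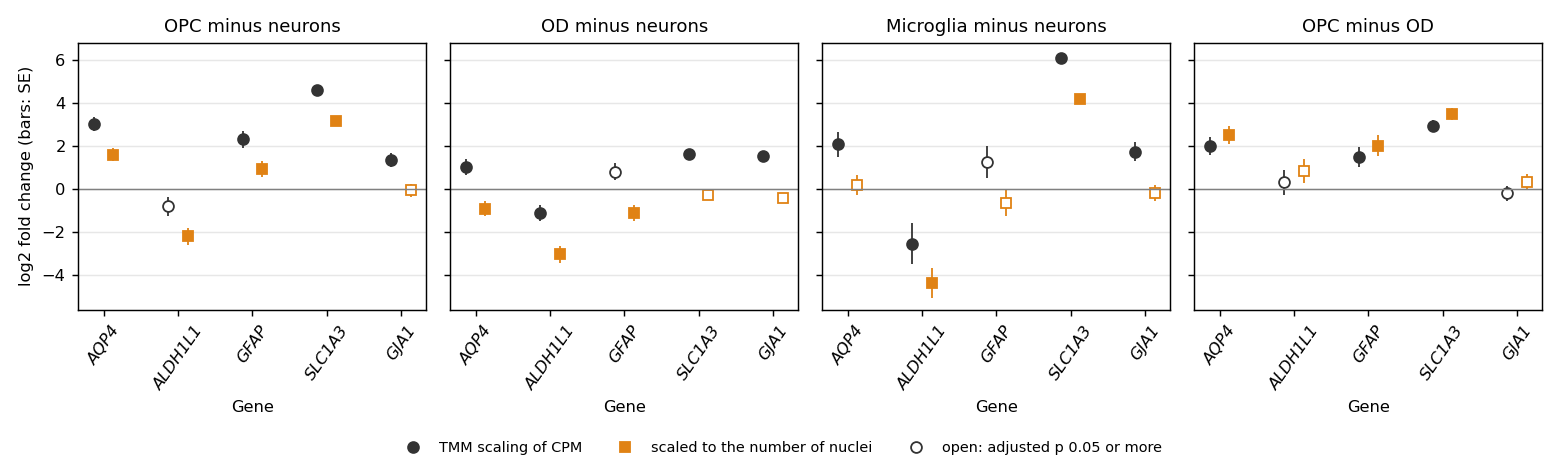
Log2 fold changes with standard errors of the 5 genes in OPCs, ODs and microglia against the mean of neurons and in OPCs against ODs, normalised to UMIs by TMM or scaled to the number of nuclei. Open symbols have an edgeR adjusted p of 0.05 or more. SLC1A3 stays above 0 under both scalings in OPCs and microglia (3.20 and 4.19 per nucleus) and crosses 0 in ODs (1.66 and -0.29).

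OPCs and ODs belong to the same lineage and were compared with each other, at a median depth of 2551 and 2619 UMIs in OPCs against 1924 and 1909 UMIs in ODs. SLC1A3 was higher in OPCs by 2.95 ± 0.28 on the log2 scale (SE, edgeR adjusted p = 4.16e-10). AQP4 was higher by 2.01 ± 0.41 (SE, edgeR adjusted p = 0.000184), a value that rested largely on animal 1, since it was 0.99 with animal 1 left out and 2.62 with animal 2 left out. GFAP was higher by 1.51 ± 0.47 (SE, edgeR adjusted p = 0.0107), with 2.07 when animal 1 was left out and 1.20 when animal 2 was left out. GJA1 and ALDH1L1 did not pass, with differences of -0.19 ± 0.35 and 0.31 ± 0.57 (SE, edgeR adjusted p = 0.726 and 0.736). The calls for SLC1A3, AQP4 and GFAP were made under the scaling to nuclei as well, at 3.49, 2.51 and 2.03, where the median of all genes was 0.49. With 29 nuclei per subclass and animal the AQP4 difference was 0.48 and no longer called (edgeR adjusted p = 0.951). Of all genes, 20.2% were called higher in OPCs and 17.9% lower (30.7% and 7.55% when scaled to the number of nuclei).

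ALDH1L1 was the only one of the 5 genes with a neuronal subclass as its second highest. IT_B neurons of animal 1 held 276 UMIs in 851 nuclei and those of animal 2 held 296 UMIs in 875 nuclei. The 4 libraries gave 36.6, 32.5, 40.6 and 35.7 CPM, so the level was alike in all. At least 1 UMI was found in 25% (exact 95% interval 22.2% to 28.1%) and 26.1% (23.2% to 29.1%) of IT_B nuclei, at a median depth of 8681 and 8021 UMIs. In ODs, at a median depth of 1924 and 1909 UMIs, it was found in 0.395% and 0.340%. Few IT_B nuclei held much of it: 1.06% and 1.49% had at least 3 UMIs, and the highest had 4.

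IT_B nuclei hold more UMIs than astrocytes, so the distance to astrocytes is smaller per nucleus than in CPM. Astrocytes were 11.9 and 9.96 times higher in CPM, but 3.49 and 3.39 times higher in UMIs per nucleus. Thinned to 1000 UMIs, 4.00% and 4.57% of IT_B nuclei and 31.3% and 31.9% of astrocytes held ALDH1L1. Glutamatergic subclasses next in order were L6CT, the corticothalamic neurons of layer 6, at 9.78 and 12.7 CPM, and IT_A at 5.85 and 6.52 CPM. The GABAergic subclasses lay between 1.15 and 5.20 CPM. The remaining glutamatergic subclasses were in that range too, with L5PT at 5.54 and 4.30 CPM, IT_C at 4.20 and 4.93 CPM, IT_D at 1.76 and 4.41 CPM, L5NP at 1.79 and 3.30 CPM and L6b at 1.82 and 0 CPM, except for L5PT of animal 1 above it and L6b of animal 2 below it.

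The remaining astrocyte genes were at few UMIs in IT_B, whether or not a nucleus held ALDH1L1. For each UMI of SLC1A3, IT_B held 3.63 and 4.11 UMIs of ALDH1L1, L6CT held 1.23 and 0.934, and astrocytes held 0.122 and 0.123. IT_B nuclei with ALDH1L1 carried RORB, a transcription factor of layer 4 neurons, at 1342 CPM, and those without it at 1345 CPM in animal 1, and at 1548 and 1611 CPM in animal 2. AQP4 was at 1.86 and 0.859 CPM in these groups of animal 1 and at 2.19 and 1.45 CPM in animal 2, and GFAP at 1.39 and 0.859 CPM and at 1.75 and 0.908 CPM, so both were higher in the nuclei with ALDH1L1, on 3 to 8 UMIs per group. SLC1A3 was at 13.0 and 8.24 CPM in animal 1 and at 7.44 and 9.98 CPM in animal 2, and GJA1 turned between the animals too. The nuclei with ALDH1L1 were deeper, with a median of 9506 against 8431 UMIs in animal 1 and 9358 against 7680 in animal 2. RefSeq places another locus over ALDH1L1 in a later assembly (mMonDom1), and its part in the count was not tested. SLC41A3, the neighbour of ALDH1L1 there, was at 2.51 and 0.642 CPM in IT_B.

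Between the classes of neurons, ALDH1L1 was higher in glutamatergic than in GABAergic subclasses by 1.07 ± 0.34 on the log2 scale (SE, edgeR adjusted p = 0.0117). This difference depended on IT_B: with IT_B left out of the glutamatergic mean, an alternative chosen after seeing the data, it was 0.65 and no longer called (edgeR adjusted p = 0.133). With animal 1 left out it was 0.43, from animal 2, where L6b had 0 UMIs of ALDH1L1. SLC1A3 went the other way and was higher in GABAergic neurons, at 20.2 and 19.6 CPM against 7.75 and 10.4 CPM in glutamatergic neurons. The difference was -1.12 ± 0.17 (SE, edgeR adjusted p = 3.85e-06), with -0.64 when animal 1 was left out and -1.77 when animal 2 was left out. Under the scaling to nuclei it was -0.76 (edgeR adjusted p = 0.000148).

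GJA1 was also lower in glutamatergic neurons, by -0.62 ± 0.22 (SE, edgeR adjusted p = 0.0217), a call that was lost under the scaling to nuclei (-0.26, edgeR adjusted p = 0.305). AQP4 missed the threshold (-0.78 ± 0.32, SE, edgeR adjusted p = 0.0534) but passed with DESeq2 (-0.82, adjusted p = 0.0265) and without the low-count filter (-0.75, edgeR adjusted p = 0.0277), and single animals gave -1.48 and -1.45 without a test. In each animal 1 glutamatergic subclass had 0 UMIs of AQP4 (IT_D in animal 1 and L6b in animal 2), so the single-animal values do not measure the spread alone. GFAP did not pass the test (-0.43 ± 0.41, SE, edgeR adjusted p = 0.493). Of all genes, 20.5% were called higher in glutamatergic and 19.4% higher in GABAergic subclasses. Scaled to the number of nuclei, 43.5% were called higher in glutamatergic and 8.48% higher in GABAergic subclasses.

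GFAP was spread unevenly over astrocyte nuclei. In animal 1, 62.7% of astrocyte nuclei had 0 UMIs of GFAP, where a Poisson draw at the mean level and each nucleus' depth gives 47.1%, and in animal 2 the values were 67.2% and 57.5%. The variance over nuclei was 3.94 and 3.45 times that of the Poisson draw. The tenth of nuclei with the most GFAP held 58.3% and 56.9% of its UMIs, and single nuclei reached 25 and 20 UMIs. After thinning to 1000 UMIs, the mean ratio of the variances was 1.88.

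The other genes had lower variance ratios. AQP4 had 61.9% and 56.0% of nuclei at 0 UMIs, beside 59.5% and 56.0% from the draw, with a variance ratio of 1.19 and 1.12. ALDH1L1 had a variance ratio of 1.35 and 1.25, and GJA1 of 1.54 and 1.79. SLC1A3, at a mean of 9.29 and 9.31 UMIs per nucleus, had a ratio of 2.99 and 2.66, and its counts ran up to 53 and 40. A variance ratio grows with the mean count, so the ratios of these genes do not rank them by how unevenly they are expressed. GFAP had its higher ratio at a mean of 0.802 and 0.580 UMIs per nucleus, lower than the means of ALDH1L1, GJA1 and SLC1A3.

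**Figure D4:**
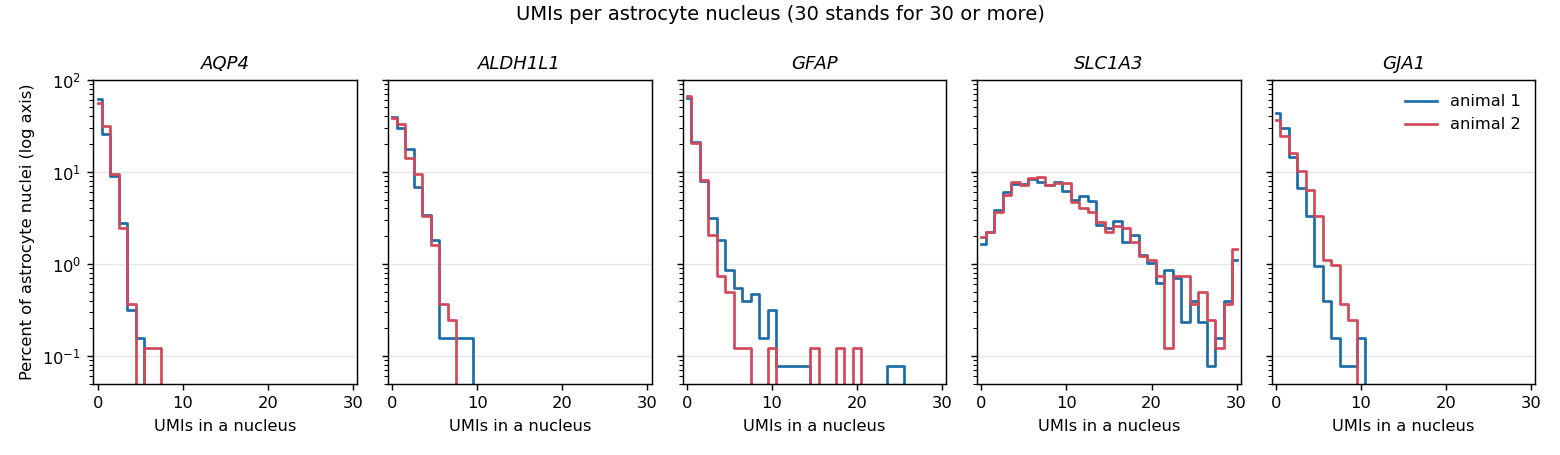
Percent of astrocyte nuclei, on a log axis, by the number of UMIs of each gene they hold, with 1 line per animal; the last bin holds nuclei with 30 or more. GFAP combines many nuclei at 0 (62.7% and 67.2%) with a tail that reaches 25 and 20 UMIs, and AQP4 ends at 5 and 7 UMIs.

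All 5 genes were seen together in 6.36% and 7.84% of astrocyte nuclei, 3 of them in 35.5% and 37.3%, and 0 of them in 0.314% and 1.10%. After thinning, GJA1 and AQP4 rose and fell together in a small measure. GJA1 stood at 455 CPM in nuclei with AQP4 and 368 CPM in those without it in animal 1, and at 630 and 504 CPM in animal 2. SLC1A3 was lower where GFAP was present, at 3045 against 3491 CPM and at 2629 against 3151 CPM. These are differences between nuclei of the same libraries and are given as a description.

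The annotation divided astrocytes into 3 types, and GFAP, SLC1A3 and GJA1 followed this division. The types were clustered on genes of these same nuclei, so their values are a description too. Astro_2, with 473 and 281 nuclei, was highest in GFAP, at 447 and 237 CPM, beside 181 and 181 CPM in Astro_1 and 186 and 121 CPM in Astro_3. Astro_2 was lowest in SLC1A3, at 2846 and 2593 CPM, beside 3727 and 3371 CPM in Astro_1 and 3756 and 3279 CPM in Astro_3. It was lowest in GJA1 as well, at 279 and 211 CPM, where Astro_1 stood at 497 and 714 CPM and Astro_3 at 369 and 441 CPM. Both animals gave the same order of Astro_2 against the other types for these 3 genes. Markers of ODs moved with the types as well: they summed to 852 and 529 CPM in Astro_2, 104 and 71.5 CPM in Astro_1 and 103 and 59.1 CPM in Astro_3, and MBP, myelin basic protein, was at 579 and 322 CPM in Astro_2. The part of the OD markers in the differences between types was not tested. ALDH1L1 was nearly level, between 350 and 436 CPM in all types and animals. AQP4 did not keep an order: Astro_2 was lowest in animal 2, at 117 CPM against 234 and 254 CPM, but lay between the others in animal 1.

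**Figure D5:**
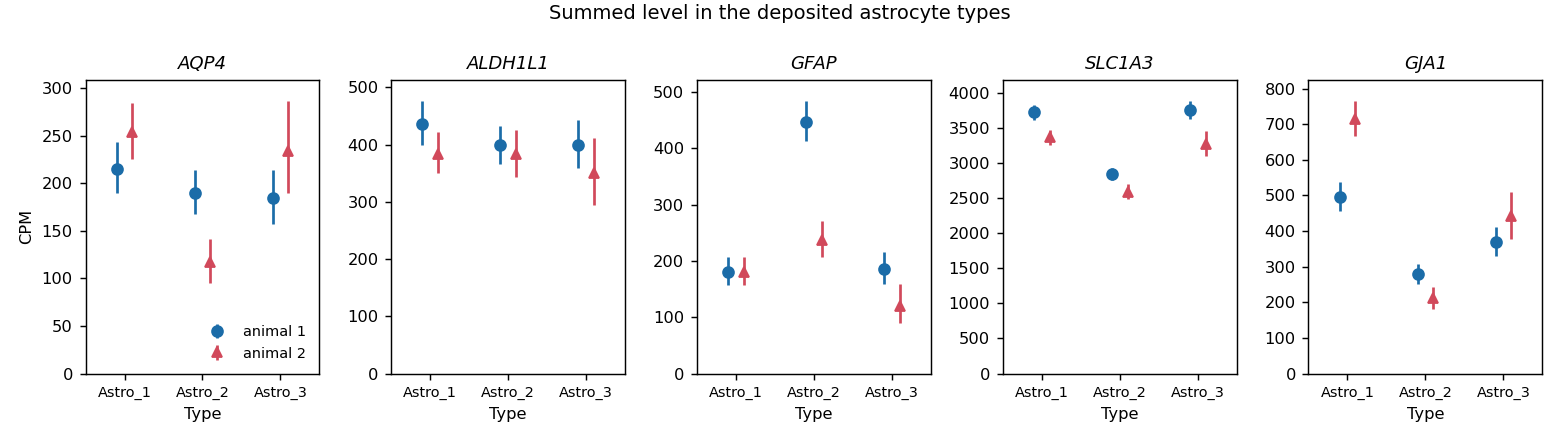
Level of the 5 genes in the 3 astrocyte types in CPM, with 1 point per animal and exact Poisson 95% intervals that cover counting error only. Astro_2 is highest in GFAP (447 and 237 CPM) and lowest in SLC1A3 (2846 and 2593 CPM) and GJA1 (279 and 211 CPM) in both animals.

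Genes that work beside the 5 were set in the same order of types. Of all 5482 genes with at least 20 CPM, 12.4% were lower in Astro_2 than in both other types in both animals and 25.2% were higher. Of 5 glutamate uptake genes, 4 were lower in Astro_2 than in both other types in both animals and 0 were higher, among them SLC1A2, the transporter GLT-1, at 14041 and 13771 CPM, and GLUL, glutamine synthetase, at 705 and 740 CPM. GJB6, connexin 30, was lower too, at 23.0 and 30.4 CPM, where the others ran from 38.6 to 86.2 CPM. Of 7 water and potassium genes, 3 were lower, ATP1B2 and DAG1 among them, 1 was higher (SLC4A4, a bicarbonate transporter, at 2220 and 1941 CPM) and 3 kept no order. Of 11 astrocyte identity genes, 7 were lower, 3 higher and 1 kept no order. Of 3 reactive genes 1 was higher and 2 kept no order, and of 2 folate genes 1 was higher and 1 kept no order.

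To ask which genes go with GFAP from nucleus to nucleus, astrocyte nuclei with a GFAP UMI (246 and 116) were compared with those without (1027 and 700) after thinning each to 1000 UMIs. The groups differed in type: Astro_2 made up 52.8% of nuclei with and 33.4% of those without GFAP in animal 1, and 31.0% and 35.0% in animal 2. By edgeR's adjusted p, 0 of 6425 genes were called (0% higher and 0% lower), with 230 genes at an unadjusted p under 0.05 and, by DESeq2, 0 called and 22 at an unadjusted p under 0.05. In data simulated for this comparison the test recovered 93 of 100 changes by 4 times and 54 of 100 changes by 2 times. The changes were planted only in genes above a set CPM, without a shift shared by an animal's sums or a difference in type. Lower genes are thus not covered. SLC1A3 differed by -0.22 ± 0.11 on the log2 scale (SE, edgeR adjusted p = 1.0), lower in nuclei with GFAP in both animals. With the animal as a block, 1 gene was called, SNTB1, a syntrophin of the dystrophin complex (1.36 ± 0.18, SE, edgeR adjusted p = 0.00714). It stood at 689 and 129 CPM in nuclei with GFAP and 247 and 79.3 CPM in those without, and was singled out after its values were seen.

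The 5 genes were set beside 75 partner genes in 7 lists, of which 50 had a symbol and 40 reached 20 CPM in some subclass. Of these 40, 21 were highest in astrocytes in both animals, where this held for 759 of 10412 genes overall (7.29%). All 5 glutamate uptake genes were among the 21: SLC1A2 at 15454 and 14791 CPM, next in OPCs at 1252 and 1106 CPM; GLUL at 774 and 910 CPM, next in ODs at 484 and 442 CPM; and SLC38A3, SLC7A10 and GRM3. Of the water and potassium genes 6 of 7 were, including the potassium channel KCNJ10 at 76.4 and 98.4 CPM, and DAG1, dystroglycan, was not.

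The gap junction list divided. GJB6 was highest in astrocytes, at 36.2 and 62.3 CPM, while PANX1, pannexin 1, was highest in ODs, at 54.0 and 60.2 CPM. Of 3 folate genes, MTHFD1 alone was highest in astrocytes, at 146 and 142 CPM. Of 4 intermediate filament genes beside GFAP, 0 were highest in astrocytes, a count that cannot be told from the 7.29% of all genes. VIM, vimentin, stood at 5.70 and 0.405 CPM there and at 82.5 and 449 CPM in endothelial nuclei. Of 5 genes named for reactive astrocytes, TNC alone was highest in astrocytes (108 and 101 CPM), and C3 was at 0.856 and 1.21 CPM there, against 106 and 166 CPM in microglia. Astrocyte identity genes were highest in astrocytes in 7 of 13 cases, SOX9 and ID4 among them. APOE was not, at 1381 and 2096 CPM in astrocytes and 2885 and 4136 CPM in microglia.

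The partner genes were also compared with neurons in each glial subclass, and their counts stand against 23.4% of all genes called higher and 21% lower in OPCs (7.59% and 65.2% when scaled to the number of nuclei). Of 8 water and potassium genes tested, 6 were called higher and 0 lower in OPCs than in neurons (4 and 2 when scaled to the number of nuclei), and 3 of 5 glutamate uptake genes were higher and 1 lower on both scales. Of 13 astrocyte identity genes, 9 were higher and 0 lower in OPCs (4 and 3 when scaled to the number of nuclei), and of 5 folate genes 3 were higher and 0 lower (0 and 3). Of 4 intermediate filament genes 0 were higher and 3 lower on both scales, and of 7 genes named for reactive astrocytes 2 were higher and 0 lower (2 and 1). SLC1A2 was higher in OPCs by 2.43 on the log2 scale (edgeR adjusted p = 3.90e-13). In ODs, 4 of the 8 water and potassium genes were higher and 2 lower (2 and 5 when scaled to the number of nuclei), beside 30.7% and 28.7% of all genes (5.98% and 73.3%), with KCNJ10 higher by 4.91 (edgeR adjusted p = 3.70e-18). All 4 gap junction genes tested were higher in ODs (2 of 4 when scaled to the number of nuclei). SLC1A2 did not share the rise of SLC1A3 in microglia, with a difference of -0.66 (edgeR adjusted p = 0.0474).

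The lists were also counted in the remaining comparisons. In endothelial nuclei 3 of 7 reactive genes were higher and 0 lower, and 2 of 13 astrocyte identity genes were higher and 0 lower (3 and 1, and 1 and 4, when scaled to the number of nuclei), beside 6.25% and 10.6% of all genes. These shares are of the main fit. The scaled fit called 7728 of 17227 genes in either direction, against 2905, and its shares by direction were not counted. The glutamate uptake and the water and potassium lists in endothelial nuclei had 0 higher and 1 lower each (0 and 2, and 0 and 3, when scaled to the number of nuclei). In microglia 1 of 5 glutamate uptake genes was higher than in neurons and 2 lower, and 1 of 8 water and potassium genes was higher and 2 lower. Scaled to the number of nuclei, these were 0 higher and 4 lower, and 0 higher and 5 lower. Of all genes 20.8% were higher and 24.6% lower in microglia, and 6.99% and 70.8% under that scaling. Between OPCs and ODs, 5 water and potassium genes were higher in OPCs and 2 lower (5 and 0 when scaled to the number of nuclei), beside 20.2% and 17.9% of all genes (30.7% and 7.55%). Between the neuronal classes, 4 of 8 water and potassium genes were higher in GABAergic subclasses and 0 in glutamatergic ones (4 and 1 when scaled to the number of nuclei), beside 19.4% and 20.5% of all genes (8.48% and 43.5%).

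The genes most like each of the 5 over the 36 sums of subclass and animal were found by Pearson's r of log2(CPM + 1), over 7182 genes with a symbol and at least 20 CPM in the highest subclass of both animals. The sums share libraries, animals and depth, and r is a description. The 14 different genes found were each highest in astrocytes. AQP4 was most like LTF, lactotransferrin (0.92), HSD17B4, a peroxisomal enzyme (0.88), and PTGR2, a prostaglandin reductase (0.88). SLC1A3 was most like LTF (0.91), WDR44 (0.91) and PRRX2, a homeobox factor (0.90). GFAP was most like HES5, an effector of Notch signalling (0.94), SLC13A3, a dicarboxylate transporter (0.94), and FZD10, a Wnt receptor (0.91). GJA1 was most like CA3, a carbonic anhydrase (0.93), SLC39A12, a zinc transporter (0.92), and GLI2, a factor of Hedgehog signalling (0.91). ALDH1L1 had the weakest likenesses, to COLEC12 (0.85), PDGFRB (0.81) and OTX1 (0.80). PDGFRB usually marks mural cells of vessels. Among the 5 genes, GFAP and GJA1 were alike (0.89), as were AQP4 and SLC1A3 (0.85), and ALDH1L1 and SLC1A3 were least alike (0.32).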

How the data were processed

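The authors aligned the reads with Cell Ranger (6.1.1 per the labels, another version per the file headers), counting intronic reads, against ASM229v1 and an Ensembl annotation with lengthened 3′ gene ends. The deposited matrices hold raw UMI counts of each nucleus. A doublet score from Scrublet (a deposited fraction), doublet and quality calls, and class, subclass and type labels came with them. Of 36558 barcodes 35079 passed the quality call and 32764 carried a subclass. Among these, 798 nuclei marked as doublets (77 of them astrocytes) stayed in.

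Nuclei are not replicates, so counts of the 2 libraries of an animal were summed per animal and subclass, giving 36 sums. P-values rest on the spread between 2 animals, pooled over all sums of a fit, and the main fits took the sums as independent. The SE printed with an edgeR value was derived from the fold and its test statistic. Tests used edgeR 4.0.16 in R 4.3.3 with TMM normalization, its low-count filter, the quasi-likelihood fit and Benjamini-Hochberg adjustment at 0.05 over all genes tested, and DESeq2 1.42.0 as an alternative. Levels used Python 3.11.15. Shares carry exact Clopper-Pearson and levels exact Poisson 95% intervals, and a count of 0 carries the limit that 3 counts give. The labels number the animals in one way in the titles and in another in the library names, and ages follow the sample that holds the files. Thinning drew 1000 UMIs per nucleus.

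The members, gene lists, markers and tests were chosen with earlier results of these data known. All 5 members were named, as were genes of the partner lists, the 3 genes most like each member, and in the GFAP comparison the 5 largest called changes in each direction (none met that rule). Some genes of the partner lists are counted but not reported by name here. Same-numbered sums come from the same animal. After subtracting subclass means, sums of an animal correlated with r from 0.000146 to 0.558 over 17227 genes (median 0.105), and 0.147 in the GFAP comparison. On simulated counts for microglia against neurons over 14839 genes, 94 of 100 changes by 4 times and 72 of 100 by 2 times were recovered with 8 false calls. For the GFAP comparison the false calls were 4 over 6060 genes. Both simulations planted changes only in genes above a set CPM and gave the sums of an animal no shared shift.

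Alternatives covered DESeq2, the filter, the block, scaling to the number of nuclei, doublets, labels rebuilt from other genes, 29 nuclei per subclass and animal, thinning, single libraries and single animals. Gene positions of RefSeq (mMonDom1) served only to find the neighbours of the 5 genes.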

Additional observations from a re-analysis of the deposited data

Results flagged for a closer look

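Nuclei that the annotation left out of the subclasses also held the 5 genes. Of 276 non-neuronal nuclei left out as ambiguous, 49 held UMIs of at least 3 of the 5 genes, which is 17.8% (exact 95% interval 13.4% to 22.8%), with 21.0% in animal 1 and 14.5% in animal 2. Of 705 non-neuronal nuclei left out as doublets, 129 did, which is 18.3% (15.5% to 21.4%). The share was 66.4% in labelled astrocytes (1387 of 2089) and 0.178% in the other labelled non-neuronal nuclei (11 of 6178), at unequal depth. Median depth was 1823 UMIs in the ambiguous and 8445 UMIs in the doublet nuclei, against 2620 in astrocytes and 1959 in the other labelled non-neuronal nuclei. Thinned to 1000 UMIs per nucleus, the share was 8.79% in the ambiguous nuclei (exact 95% interval 5.71% to 12.8%), 1.14% in the doublet nuclei (0.492% to 2.23%), 24.0% in astrocytes and 0.0487% in the other labelled non-neuronal nuclei (0.0101% to 0.142%).

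In the 49 ambiguous nuclei the astrocyte markers summed to 10579 CPM in animal 1 and 9330 CPM in animal 2, beside 23234 and 22441 CPM in labelled astrocytes with at least 3 of the 5 genes. The list holds the 5 genes that chose these nuclei, so the sums are a description. OD markers summed to 891 CPM in animal 1 and 43.1 CPM in animal 2, beside 473 and 258 CPM in those astrocytes. Ependymal markers summed to 50.5 CPM in the 29 nuclei of animal 1 and to 1120 CPM in the 20 nuclei of animal 2. In the doublet nuclei the neuronal markers summed to 3069 and 3194 CPM. Of 730 GABAergic nuclei left out as ambiguous, 0 held 3 of the 5 genes, which allows a share of up to 0.411% at 3 counts.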

How the results depend on the processing

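Of 188 log2 fold changes of the 5 genes recomputed under an alternative with a test, over 28 comparisons, 165 kept their direction and their side of the threshold, 12 lost the call, 5 gained one and 6 turned direction. A further 15 could not be estimated, since a subclass had 0 UMIs of the gene. Adding the animal as a replicate block changed no call of the 5 genes (SLC1A3 in microglia 6.11), and called 1 gene in the GFAP comparison. Scaling to the number of nuclei turned GJA1 in OPCs (-0.060), AQP4, GFAP, SLC1A3 and GJA1 in ODs (-0.90, -1.11, -0.29 and -0.41) and GJA1 in microglia (-0.17), ended the calls of AQP4 in microglia (0.18) and of GJA1 between neuronal classes (-0.26), and added ALDH1L1 in OPCs (-2.19). It called 12532 genes in OPCs, 13410 in microglia and 7728 in endothelial nuclei, against 7639, 7827 and 2905. With 29 nuclei per subclass and animal, 1795, 2434, 2387, 1351 and 2150 genes were called in OPCs, ODs, microglia, OPCs against ODs and between neuronal classes, and the calls of AQP4 and GFAP in OPCs (2.31 and 3.17), AQP4 and GJA1 in ODs (1.82 and 2.72), GJA1 in microglia (2.88) and AQP4 between OPCs and ODs (0.48) were lost. That setting alone called SLC1A3 in endothelial nuclei (1.99). Fewer nuclei and genes enter it.

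Removing doublets called ALDH1L1 in OPCs (-1.23). ALDH1L1 in microglia was not called without the filter (-2.53), with rebuilt labels (-2.38) or by DESeq2 (-2.47), and AQP4 between neuronal classes was called without the filter (-0.75) and by DESeq2 (-0.82). Leaving IT_B out gave 0.65 for ALDH1L1. The GFAP comparison called 4 genes without the filter and 3 with at least 2 UMIs against 0. The causes were not tested.

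Single animals gave, in OPCs, -0.58 to -0.40 for ALDH1L1, 2.18 to 3.28 for GFAP, 4.42 to 5.09 for SLC1A3 and 1.44 to 1.55 for GJA1. In ODs they gave 1.42 to 1.60 for AQP4, -0.89 to -0.82 for ALDH1L1, 0.98 to 1.21 for GFAP, 1.73 to 1.82 for SLC1A3 and 1.64 to 1.66 for GJA1. In microglia they gave 1.60 to 2.16 for GJA1 and -1.22 (animal 1 only) for ALDH1L1, in endothelial nuclei 2.46 to 3.00 for AQP4 and 1.23 (animal 2 only) for GJA1, and between OPCs and ODs -0.22 to -0.092 for GJA1. Between neuronal classes they gave -1.48 to -1.45 for AQP4, 0.43 to 1.11 for ALDH1L1, -0.21 to -0.20 for GFAP and -0.66 to -0.45 for GJA1. Where neurons are part of a comparison, a neuronal subclass at 0 UMIs in an animal enters the mean of logs. This held for 1 subclass for AQP4 in each animal, and in animal 2 for 1 for ALDH1L1 and 2 for GFAP. The part of these subclasses in the single-animal values was not tested.

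The astrocyte level of AQP4, whose animals differed by little, was 206 CPM without doublets, 204 and 194 CPM from single libraries, 203 CPM with TMM library sizes, 204 CPM as a mean over nuclei and 195 CPM after thinning. ALDH1L1 in IT_B was 32.8 CPM with rebuilt labels, 42.3 CPM with TMM library sizes and 44.0 CPM after thinning. Variance ratios fell with depth, at 1000 and 2000 UMIs to 1.02 and 1.09 for AQP4, 1.09 and 1.14 for ALDH1L1, 1.88 and 3.07 for GFAP, 1.55 and 1.99 for SLC1A3 and 1.22 and 1.41 for GJA1. The ambiguous share was 3.99% at 4 of 5 genes and 8.79% after thinning. Endothelial nuclei, ALDH1L1 in microglia and most neuronal levels rest on too few UMIs to order.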
